A study of Arabidopsis thaliana with 53 samples.

Results

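Guard cells are the paired epidermal cells that open and close the stomatal pore, and abscisic acid (ABA) is the drought hormone that closes it. ABA is bound by PYR/PYL receptors, which then inhibit type 2C protein phosphatases such as ABI2 and HAB1. The kinase OST1 is thereby released and acts on ion channels such as SLAC1 and on bZIP transcription factors of the ABF family. ATAC-seq maps open chromatin by the insertion of Tn5 transposase, and a peak is a stretch of genome where insertions pile up.

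The regions described here are peaks of open chromatin that were called in untreated guard cells, were absent from the other untreated tissues, and were called again in guard cells after ABA. A peak of the wild-type (WT) guard cell control list was taken when it shared no base with any peak of the WT root, WT mesophyll and WT seedling control lists. It also had to overlap, by 1 bp or more, a peak of both the 4 h and the 24 h guard cell ABA lists. Of 20954 guard cell control peaks, 3693 (17.6%) were absent from the 3 other controls, and 1618 of those were called at both ABA times. The 1618 kept peaks were 7.72% of the guard cell control list, 43.8% of its guard-cell-only peaks, and covered 779579 bases, against 353370 peaks in all 18 lists of the series. "Guard-cell-only" refers to the untreated lists alone.

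All plants were Arabidopsis thaliana of the Col-0 strain, and the nuclei were sorted by FACS from plants with an EGFP-tagged histone H2B expressed as a cell-type marker. The promoters that drove the marker are not named in the sources used here. There were 53 samples in 18 groups, with 2 to 4 samples per group and 3 in each guard cell group. Guard cells came from WT plants treated with ethanol vehicle for 4 h, with 50 µM ABA for 4 h or 24 h, or kept at 100 ppm or 1000 ppm CO2 for 4 h. The abf1/2/3/4 mutant, which lacks ABF transcription factors, gave guard cells after vehicle or 50 µM ABA for 4 h. Mature plants were sprayed on the rosette, whereas seedlings were moved to plates that held ABA or vehicle. The 24 h ABA list was set beside the 4 h vehicle list, since no other vehicle list of WT guard cells was analysed here. Root lists came from seedling roots: WT with vehicle or with ABA for 45 min, 2 h and 4 h, and abf1/2/3/4 with vehicle or with ABA for 45 min and 2 h. For the last of these groups the titles give 2 h and the treatment time gives 4 h, and the title is used here. Mesophyll and whole seedlings were WT, with vehicle or ABA for 4 h.

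The deposited files held 1 peak list per group, with no values per sample and no read counts, so the depth is unknown and no test over samples was possible. Shares are given with exact Clopper-Pearson 95% intervals, which hold counting error alone, as if peaks were independent of each other. The height of a peak is given as the −log10 p of the authors' peak caller, which is not corrected for multiple testing and is read only within its own list. The median height of all peaks was 9.68 in the WT guard cell control list and 7.23 and 9.39 after 4 h and 24 h of ABA. It was 9.73 and 8.65 at 100 and 1000 ppm CO2, and 7.92 and 7.49 in the mutant guard cell control and ABA lists. A lower height in another list is therefore not read as a loss of open chromatin. The lists held between 15345 and 27514 peaks. The untreated guard cell list had a peak in or within 1500 bp of 75 of 79 genes with known roles in guard cells. Peaks of the same list also lay at 9 of 9 mesophyll genes, 3 of 7 vascular genes and 9 of 15 root genes, so a peak near a marker gene did not by itself mark a cell type. Of the 79 guard cell genes, only SLAC1, ALMT6, BLUS1, HT1 and TGG1 had peaks in all 7 guard cell lists and in 0 of the 11 other lists. Most of the 79 had peaks in all 11 other lists, KAT1, OST1 and MUTE among them. The guard cell factor MYB61 and the myrosinase TGG2 had none in any list.

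The kept peaks were chosen by their calls in the untreated guard cell list, its 2 ABA lists and the other 3 controls, so the counts in these 6 lists are a description. Of the 3693 guard-cell-only peaks, 1799 were found at 4 h and 2264 at 24 h, beside 79.2% and 85.0% of all guard cell control peaks. A further 181 were found at 4 h only, 646 at 24 h only and 1248 at neither time. The 2075 peaks missing at either time are called not kept here. Keeping followed peak strength: with the control list ranked by −log10 p and divided into 5 equal rank bins, 98.8% of guard-cell-only peaks were kept in the strongest bin, then 83.3%, 71.4% and 51.3%, and 21.6% in the weakest. Peaks shared with all 3 other controls were kept at 99.7% in the strongest bin and 48.7% in the weakest.

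The kept peaks were mid-sized. Their median width was 353 bp, with a range of 113 to 2911 bp, and their median −log10 p was 7.88, with a range of 3.33 to 29.1. The medians were 249 bp and 5.34 for peaks not kept, and 470 bp and 13.0 for peaks shared with all 3 other controls. From the strongest rank bin to the weakest there were 169, 230, 320, 508 and 391 kept peaks, so all strengths were present and the weaker bins held more. The 4 h ABA list covered a median of 94.5% of a kept peak and the 24 h list 95.2%, and 1529 and 1550 of the 1618 were covered over at least 50% of their bases. In 183 cases the overlapping 4 h ABA peak was a broad peak that also spanned other guard cell control peaks, and in 162 cases the 24 h peak was. Kept peaks at the same locus can therefore rest on the same ABA peak.

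The 15 strongest kept peaks were all found in all 7 guard cell lists, and 10 of them in no other list. The strongest lay near BCAT-1, a branched-chain amino acid transaminase (chr1:3283274-3284548, TAIR10, in the numbering of the deposited lists with the start counted from 1). Its −log10 p was 29.1 in the WT control, 21.4 and 23.7 after ABA for 4 h and 24 h, 23.9 and 25.7 at 100 and 1000 ppm CO2, and 19.8 and 20.9 in the abf1/2/3/4 control and ABA lists. Outside guard cells it was called in the seedling ABA list alone, at 3.29. The next lay in LUT1, a cytochrome P450 of lutein synthesis (chr3:19696063-19697483), at 26.8 in the control, 18.4 and 25.9 after ABA, and 18.3 to 24.4 in the other 4 guard cell lists, with no peak elsewhere.

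Of the 15, 3 lay at genes known for the cuticle, the lipid layer over the epidermis, a grouping made after the genes were seen. KCS6, an elongase of very-long-chain fatty acids for wax, had a peak inside the gene (chr1:25714403-25715919) at 24.8 in the control and 17.9 and 23.1 after ABA. It was also called at 5.15 in the WT root ABA 4 h list and at 3.77 in the seedling ABA list. DCF, named for a deficiency in cutin ferulate, had a peak (chr3:18045323-18046617) at 25.0 in the control, 12.3 and 9.09 after ABA, and 16.6 to 22.2 in the other guard cell lists. LTPG2, a membrane-anchored lipid transfer protein, had a peak (chr3:15617813-15618475) at 23.6 in the control and 14.2 to 22.6 in the other 6 guard cell lists. The widest kept peak, 2911 bp, lay near LACS1, a long-chain acyl-CoA synthetase (chr2:19389829-19392739), at 19.1 in the control. The DCF, LTPG2 and LACS1 peaks were called in no list of another tissue.

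The other strong peaks lay at genes of varied roles. NHX1, a vacuolar sodium/proton exchanger, had a peak (chr5:9554303-9555300) at 24.8 in the control and 14.9 and 22.0 after ABA. TGG1, a myrosinase abundant in guard cells, had a peak (chr5:9082203-9083899) at 23.5 in the control, 9.87 and 18.4 after ABA and 15.2 to 23.6 in the other lists of guard cells. Neither peak was called outside guard cells. The rest of the 15 lay at GLX1, the amino acid transporter gene LHT2, the auxin-response gene AT1G20470 (SAUR60) and AT2G15170, AT4G24140, AT3G23740, AT1G78170 and AT4G21620.

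The other 12 lists were not read in the choice, although the choice by WT ABA calls, and the peak strength that goes with it, can carry over to them. In the WT guard cell 100 ppm CO2 list 1462 of the 1618 kept peaks were found (90.4%, 95% interval 88.8 to 91.8), beside 89.0% of all guard cell control peaks and 70.4% of the peaks not kept. In the 1000 ppm list 1500 were found (92.7%, 91.3 to 93.9), beside 89.7% of all control peaks and 56.5% of those not kept. The kept peaks were thus found slightly more often than all control peaks in the full 1000 ppm list, and their interval at 100 ppm reached the background. With every list cut to its 15345 strongest peaks and the rule applied again, which chose 1330 peaks, neither list showed an excess: the shares were 94.4% (93.0 to 95.5) beside 94.2% of all control peaks at 1000 ppm, and 92.2% (90.6 to 93.6) beside 93.0% at 100 ppm. Both CO2 lists held 1389 kept peaks, beside 83.9% of all control peaks. A further 73 were found at 100 ppm only (4.51%, beside 5.11%), 111 at 1000 ppm only (6.86%, beside 5.76%), and 45 in neither (2.78%, beside 5.20%). Among the peaks not kept the split ran the other way, with 516 of 2075 at 100 ppm only and 229 at 1000 ppm only. The 100 ppm list held 18999 peaks and the 1000 ppm list 19341.

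In the abf1/2/3/4 mutant the kept peaks were mostly present. Of 1618, 1425 were found in the mutant guard cell control list (88.1%, 86.4 to 89.6), beside 90.2% of all control peaks and 63.5% of those not kept. In the mutant ABA list 1435 were found (88.7%, 87.0 to 90.2), beside 83.8% of all control peaks and 30.3% of those not kept. Both mutant lists held 1321 kept peaks (81.6%, beside 80.6% of all control peaks). A further 104 were found in the mutant control only (6.43%, beside 9.64%), 114 in the mutant ABA list only (7.05%, beside 3.20%), and 79 in neither (4.88%, beside 6.58%). The share missing from both was 31.3% among the peaks not kept. The kept peaks were therefore found less often than all control peaks in the mutant control list and more often in the mutant ABA list, by intervals that did not overlap. At equal list length the deficit in the mutant control list remained, at 86.4% (84.4 to 88.2) beside 92.9%, and the excess in the mutant ABA list did not, at 89.5% (87.7 to 91.1) beside 89.2% (88.7 to 89.7). Since calls in the WT ABA lists chose them, a difference between a control and an ABA list was in part set by the choice.

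The strongest kept peaks missing from both mutant lists were of middling to low height. A peak inside AT1G61740 (chr1:22799992-22800346) stood at 8.54 in the control, 4.53 and 7.67 after ABA, and 8.71 and 5.60 at the 2 CO2 levels. A peak inside IAA16, an Aux/IAA auxin-response repressor (chr3:1289806-1289986), stood at 7.85 in the control and at 5.11 to 7.42 in the other 4 WT lists. The third lay at AT4G33660, the fourth at AT5G45200 and the fifth near NAC3, a NAC transcription factor (chr3:5239096-5239486), which was at 6.80 in the control, 4.54 at 4 h and 11.8 at 24 h of ABA. None of these 5 was called in a list of another tissue.

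**Figure D1:**
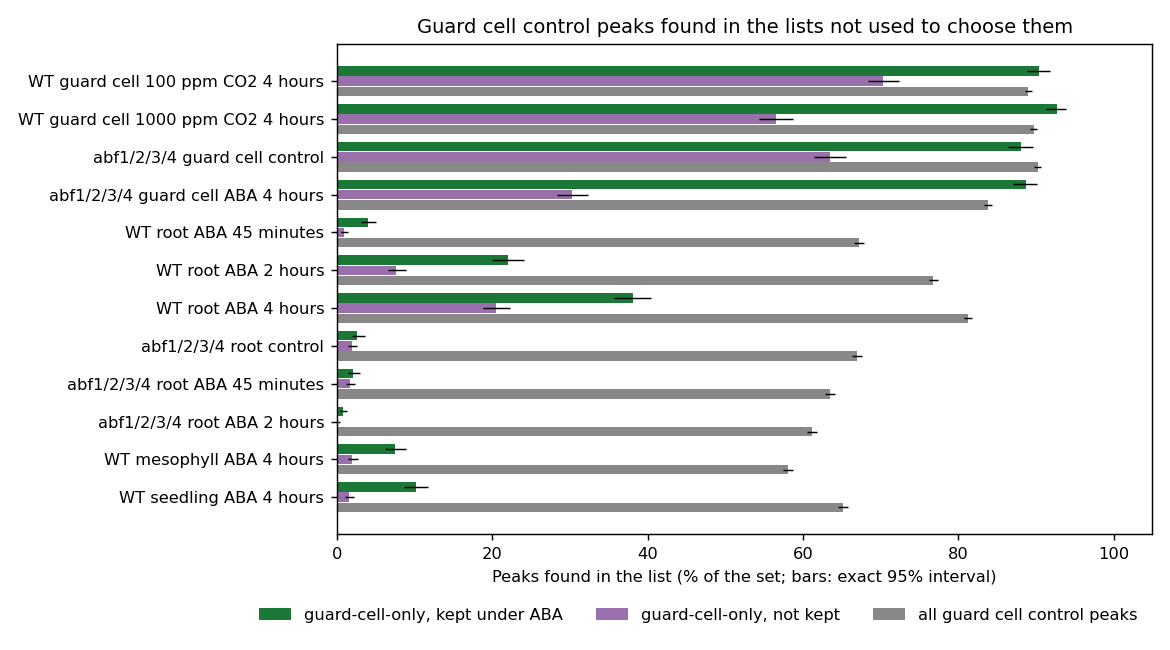
Share of each set of WT guard cell control peaks found in the 12 lists that were not used to choose the kept peaks, in percent with exact 95% intervals. Green bars are the 1618 guard-cell-only peaks kept under ABA, purple bars the 2075 not kept and grey bars all 20954 control peaks; the green bars lie at 88.1 to 92.7% in the 4 guard cell lists and at 0.803 to 38.1% in the 8 others.

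Divided by rank, kept peaks and peaks not kept differed most in the mutant ABA list. In the strongest rank bin 169 of 169 kept peaks were found in each of the 4 guard cell lists that the choice did not use. In the weakest bin 73.4% of kept peaks (68.7 to 77.7) were found at 1000 ppm, beside 44.0% of those not kept (41.4 to 46.6) and 56.0% of all control peaks. At 100 ppm the same bin gave 67.5%, 60.7% and 56.8%. In the mutant control list it gave 61.1%, 50.1% and 58.0%, and in the mutant ABA list 70.3%, 23.2% and 45.4%. The mutant ABA list separated the sets in stronger bins as well, with 98.3% of kept peaks and 67.4% of those not kept in bin 2, 304 of 320 kept peaks and 54.7% of the others in bin 3, and 90.7% and 40.8% in bin 4. At 1000 ppm bin 4 gave 97.2% and 79.5%. In the weakest bin, kept peaks were thus found more often than peaks not kept in every one of these lists. The difference there was least at 100 ppm, with intervals that overlapped (62.6 to 72.1 and 58.1 to 63.3), and greatest in the mutant ABA list. In bin 4 the sets were closest in the mutant control list, at 92.3% (89.7 to 94.5) and 89.4% (86.4 to 92.0).

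**Figure D2:**
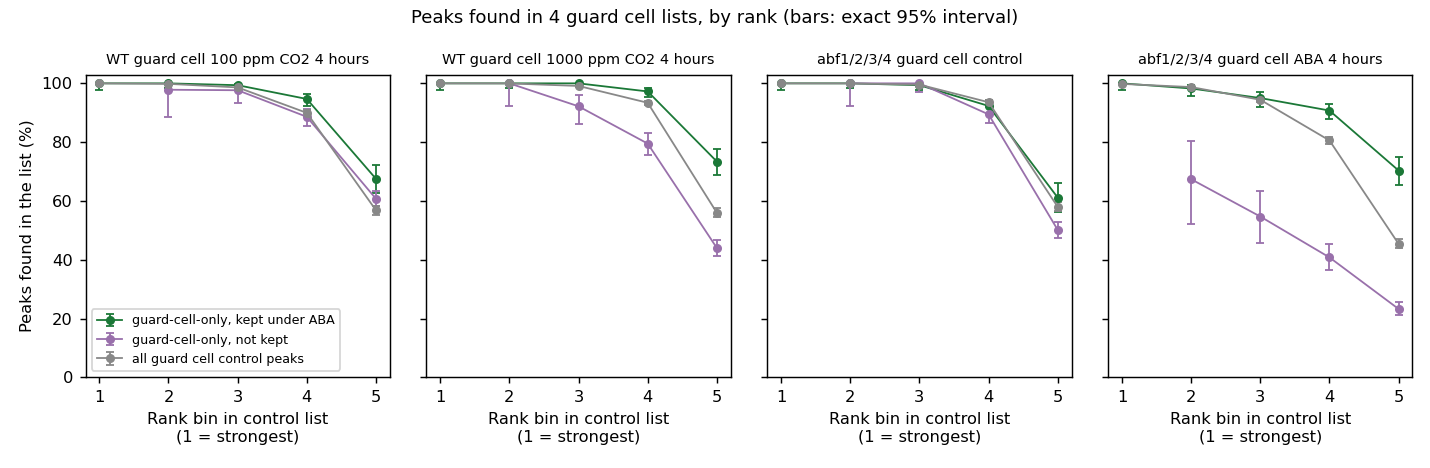
Share of peaks found (vertical axis, percent, with exact 95% intervals) in the 4 guard cell lists not used for the choice, by rank bin of the control list (1 is the strongest). Green is kept, purple is not kept and grey is all control peaks; bins under 20 peaks are not drawn. Green and purple are closest at 100 ppm and in the mutant control list, part from bin 3 on at 1000 ppm, and are apart from bin 2 on in the mutant ABA list, which had 70.3% of kept peaks and 23.2% of those not kept in bin 5.

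Across the 18 lists, 1234 kept peaks (76.3%) were called in all 7 guard cell lists, beside 69.9% of all control peaks, and 3 of the 7 were used in the choice. Over the 4 guard cell lists that were not, the share was 76.3% both of kept peaks and of all control peaks. Missing from all 4 were 18 (1.11%, beside 2.89%). Of the 1618, 888 (54.9%) were called in none of the 11 lists of other tissues, beside 11.6% of all control peaks, and 698 (43.1%, beside 3.33%) were called in all 7 guard cell lists and none of the others. The low background of these last shares was set by the choice. The remaining kept peaks were called in a root, mesophyll or seedling list after ABA or in a mutant root list: 362 in 1 list, 195 in 2, 87 in 3, and the rest in 4 to 7.

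Root lists after ABA held most of these. The rule removed every peak of the WT root control, so a share below the background was set by the choice. Peaks not kept passed the same filter and are given beside. They were weaker, with a median −log10 p of 5.34 against 7.88, and were set apart by a missing guard cell ABA call. An excess of kept peaks over them, here and in the mesophyll and seedling ABA lists, was thus in part set by the choice. In WT roots 64 kept peaks were found after 45 min of ABA (3.96%, beside 0.964% of peaks not kept and 67.3% of all control peaks). After 2 h 356 were found (22.0%, 20.0 to 24.1, beside 7.66% and 76.8%), and after 4 h 616 (38.1%, 35.7 to 40.5, beside 20.5% and 81.2%). In abf1/2/3/4 roots 43 were found in the control list (2.66%, beside 1.93% and 67.0%), 34 after 45 min of ABA (2.1%, beside 1.73% and 63.5%) and 13 after 2 h (0.803%, beside 0.145% and 61.2%). The share thus rose with time in the WT root lists and was under 3% in each mutant root list. Kept peaks were weak where they appeared in roots: at 4 h their median rank lay 79.5% of the way down that list, and 24 of 616 lay in its strongest 20%.

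The lists differ in length, and the WT root ABA 2 h and 4 h lists, with 27514 and 25604 peaks, were longer than the mutant root lists, with 17705 to 19277. With lists of equal length, as above, the share found in any of the 6 root lists other than the WT control was 26.4%, against 42.5% with full lists (83.8% of all control peaks). By list it was 6.69%, 13.4% (11.6 to 15.3) and 18.6% (16.6 to 20.8) in WT roots after 45 min, 2 h and 4 h, beside 2.64%, 2.84% and 5.48% of the 986 peaks not kept at that length and 69.2%, 69.5% and 72.0% of all control peaks. In the mutant control, 45 min and 2 h lists it was 6.24%, 7.37% (6.02 to 8.91) and 5.26% (4.13 to 6.60), beside 4.97%, 3.85% and 2.64% of peaks not kept and 69.0%, 68.6% and 68.1% of all control peaks. With equal lengths the order of WT roots by time stayed, and the mutant 2 h share remained below the WT 2 h share with intervals apart. At 45 min the order turned, from 3.96% in WT and 2.1% in the mutant to 6.69% (5.41 to 8.17) and 7.37%, with intervals that overlapped.

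Mesophyll and seedling ABA lists held fewer kept peaks than the WT root lists after 2 h and 4 h, and more than the other root lists. Mesophyll after ABA held 121 kept peaks (7.48%, 6.24 to 8.87, beside 1.98% of peaks not kept and 58.1% of all control peaks). Seedlings after ABA held 164 (10.1%, 8.71 to 11.7, beside 1.54% and 65.2%), which became 16.2% (14.2 to 18.3) at equal list length, above the 13.4% of WT roots after 2 h there. Whole seedlings contain guard cells, and what guard cell nuclei add to the seedling lists was not tested. Both lists held 71 kept peaks (4.39%, beside 52.5%).

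The peaks found in the most other lists were each called in 7 of the 11. At PMAT1, a phenolic glucoside malonyltransferase, the peak (chr5:15633435-15634008) stood at 7.78 in the guard cell control, 17.5 and 11.7 after ABA, and 4.61 to 5.04 in the other 4 guard cell lists. In WT roots it was listed at 3.97, 12.0 and 9.83 after 45 min, 2 h and 4 h of ABA. In the same window mutant roots had 3.42 and 4.21 after 45 min and 2 h of ABA, mesophyll had 5.61 and seedlings had 4.80 after ABA. Beyond MYB102, an ABA-responsive MYB factor, a weak control peak (chr4:11421920-11422231, 6.84) fell in a broad peak of 17.1 at 4 h and 12.7 at 24 h of ABA and of 18.7 at 100 ppm CO2. It met peaks of 8.83, 16.1 and 14.5 in WT roots after 45 min, 2 h and 4 h. Mutant roots had 6.65 and 7.03 there after 45 min and 2 h of ABA, mesophyll had 7.58 and seedlings had 5.89 after ABA. SQP2, AT1G72690 and AT1G29660 completed the 5. SQP2, a squalene monooxygenase, was called in 3 mutant root lists at 4.14 to 4.80 and in 3 WT root ABA lists at 4.64 to 8.78.

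Genes of the guard cell lists, chosen with earlier results of these data known, held kept peaks more often than genes at large. A kept peak lay in or within 1500 bp of 30 of 79 such genes (38.0%), beside 2307 of 27444 protein-coding genes (8.41%), and a control peak of any kind lay at 75 of 79 (94.9%) and at 73.1% of all genes. The 30 genes had 44 kept peaks between them, of which 40 were found in all 7 guard cell lists and 27 in no list of another tissue. No mesophyll gene of 9 and no vascular gene of 7 had a kept peak, and 1 root gene of 15 had (PHO1, a phosphate exporter). Peaks of the WT mesophyll, root and seedling controls were removed by the choice, so low counts at mesophyll and root genes were in part set by it. Only 3 of the 7 vascular genes had a guard cell control peak, and these lists are too short to read a count of 0. Of 10 epidermis and trichome genes, 3 had one.

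Ion channels and transporters had kept peaks at 9 of 21 genes. All 3 control peaks within reach of SLAC1, the anion channel that starts closure, were kept peaks. They stood at 4.05, 12.2 and 15.2 in the control (chr1:4257042-4257417, chr1:4259206-4259710 and chr1:4260055-4260850), and the last 2 both met a single ABA peak, at 12.0 after 4 h and 18.9 after 24 h. The first had its summit inside the neighbouring gene AT1G12470, the second was nearest to SLAC1 and the third to AT1G12490. No list of another tissue had a peak within 1500 bp of SLAC1. ALMT12, the rapid-type anion channel, had 2 kept peaks. The stronger (chr4:9975111-9975679) stood at 21.2 in the control, 15.4 and 22.6 after ABA, 23.5 and 20.0 at 100 and 1000 ppm CO2, and 16.0 in the mutant control list, and it was called in the mutant ABA list as well. In WT roots after ABA it was called at 6.70 (2 h) and 7.97 (4 h). The other (chr4:9973059-9974999), at 17.3 in the control, met peaks of the same height after 24 h of ABA and at 100 ppm CO2. It was called at 5.82 in WT roots after 4 h of ABA. ALMT6, a malate channel of the vacuole, had 2 kept peaks (18.7 and 10.4 in the control) and no peak outside guard cells.

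Potassium channels were split between the classes of list. KAT1 (chr5:18748870-18749652) and KAT2 (chr4:10114876-10115650), both inward channels, had kept peaks at 13.2 and 14.8 in the control, in all 7 guard cell lists and in no other. GORK, the outward channel, had 2 kept peaks, at 16.8 and 5.38, and both were also called in WT roots after 2 h and 4 h of ABA at 6.53 to 8.36. The proton pump gene AHA5 had 1 (chr2:10413793-10415441, 15.9), called in all 7 guard cell lists alone. CAX3, a calcium exchanger, had 2 kept peaks. The stronger (chr3:19237909-19238207), at 8.97 in the control and 12.5 and 18.7 after ABA, was also listed in 5 ABA lists of WT root, mesophyll and seedling, at 5.26 to 12.6. The other (chr3:19239920-19240467), at 8.28 in the control, was called in no list of another tissue. CAX1 had 1, in all 5 WT guard cell lists and neither mutant list. The 12 other genes of this group, such as SLAH3, TPC1 and AKT2, had control peaks but no kept peak.

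ABA signalling genes had kept peaks at 9 of 24. Of these 13 peaks, 5 were called in 4 or more of the 11 other lists, the mutant root control among them at OST1 and CPK23, and 5 in none, beside 54.9% of all kept peaks in none. The strongest lay in OST1 (chr4:16271600-16272475), at 22.9 in the control, 15.7 and 25.0 after ABA, 25.5 and 22.3 at 100 and 1000 ppm CO2, and 19.3 and 16.0 in the mutant. It was also called at 4.88, 7.38 and 8.23 in WT roots after 45 min, 2 h and 4 h, at 4.46 in the mutant root control and at 4.95 in seedlings after ABA, each below the median of its list. ABI2 had 2 kept peaks. The stronger (chr5:23086937-23087804) stood at 15.8 in the control, 13.7 and 16.4 after ABA, and 4.91, 7.98 and 10.2 in WT roots, with 7.15 in mesophyll and 5.38 in seedlings after ABA. The weaker (chr5:23089453-23089928) stood at 6.04 in the control and was called in 3 lists of other tissues. HAB1, ABF4 and CPK23, a calcium-dependent kinase, had 1 kept peak each, called in 6, 4 and 4 other lists.

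Of the 3 receptor genes listed, PYR1 had no kept peak and had peaks in all 11 other lists. PYL2 had 2 kept peaks (chr2:11093769-11094554 and chr2:11095332-11095673), at 17.1 and 10.8 in the control, and PYL4 had 1 (chr2:16047786-16048612) at 11.2, and all 3 were in the 7 guard cell lists alone. The strongest peak met by the PYL4 peak stood at 4.07 after 4 h of ABA, 20.6 after 24 h, 24.7 at 100 ppm CO2 and 9.59 at 1000 ppm. In the control list a stronger kept peak lay close beside the PYL4 peak. Whether the larger heights came from a broad peak that also covered this neighbour was not tested, so they are not read as changes at PYL4. Transporters ABCG25, which exports ABA, and ABCG22 had 1 and 2, and the peak within 1500 bp of ABCG25 was nearest to another gene, AT1G71950. No kept peak lay at ABI1, PP2CA, NCED3, ABF3 or ABI5, each of which had control peaks.

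Genes of the light and CO2 responses had kept peaks at 5 of 8 matched genes, and 6 of the 7 peaks were in no other tissue. MPK12, a MAP kinase of the CO2 response, had a peak inside the gene (chr2:18947645-18948430) at 21.1 in the control, 14.0 and 20.8 after ABA, 22.5 and 19.2 at 100 and 1000 ppm CO2, and 15.7 and 13.6 in the mutant. HT1, the kinase it inhibits, had 2, the stronger (chr1:23088062-23089812) at 18.2 in the control, 6.40 and 10.1 after ABA, 17.1 and 14.1 at the CO2 levels, and 13.4 and 7.95 in the mutant. The kept peaks at both kinases were called at low and at high CO2. BLUS1, a kinase of the blue light response, had 1 within 1500 bp (chr4:8331389-8332615, 20.0 in the control), with its summit inside the neighbouring gene AT4G14490. The carbonic anhydrase gene CA1 had 2, the stronger at 20.7 (chr3:196576-197453). The peak of CA4 (chr1:26536557-26536803) was the exception, called in the mutant root control at 8.51 and after 45 min of ABA at 8.78.

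Regulators of guard cell identity were a smaller part. FAMA, the bHLH factor that ends division in the stomatal lineage and promotes guard cell differentiation, had a kept peak of 2375 bp (chr3:8713874-8716248) at 14.1 in the control, 5.09 and 11.4 after ABA, and 6.48 to 14.4 in the other 4 lists, and no peak there in another tissue. SCAP1, a DOF factor of guard cell maturation, had 1 (chr5:26210801-26211855), at 9.99 in the control, 7.84 and 11.7 after ABA and 5.88 in WT roots after 4 h. The other 7 genes of the list, MYB60, MUTE and SPCH among them, had no kept peak. Of 10 genes of the stomatal lineage, ERL2 and YDA had 1 each, both inside the gene and called in the 7 guard cell lists alone.

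The wax regulators MYB94 and MYB96 had 2 kept peaks each. The stronger MYB94 peak (chr3:17539976-17541780) stood at 20.8 in the control and 12.0 to 20.2 in the other 6 guard cell lists, and at 4.27 in seedlings after ABA. The stronger MYB96 peak (chr5:25080134-25082264) stood at 20.4 in the control and 11.1 to 18.4 in the others, and was also called in WT roots, mesophyll and seedlings after ABA at 5.02 to 6.71. Epidermal genes had 5 kept peaks, none of which was called in another tissue: 3 in ATML1 and 1 in PDF2, both HD-ZIP factors of the epidermis, and 1 in CER5, a wax transporter. The PDF2 peak (chr4:2481051-2482037) was the strongest, at 17.5. The mesophyll, root and seedling nuclei do not give a list of pavement cells, so a region open throughout the epidermis and a region open in guard cells alone cannot be told apart here.

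**Figure D3:**
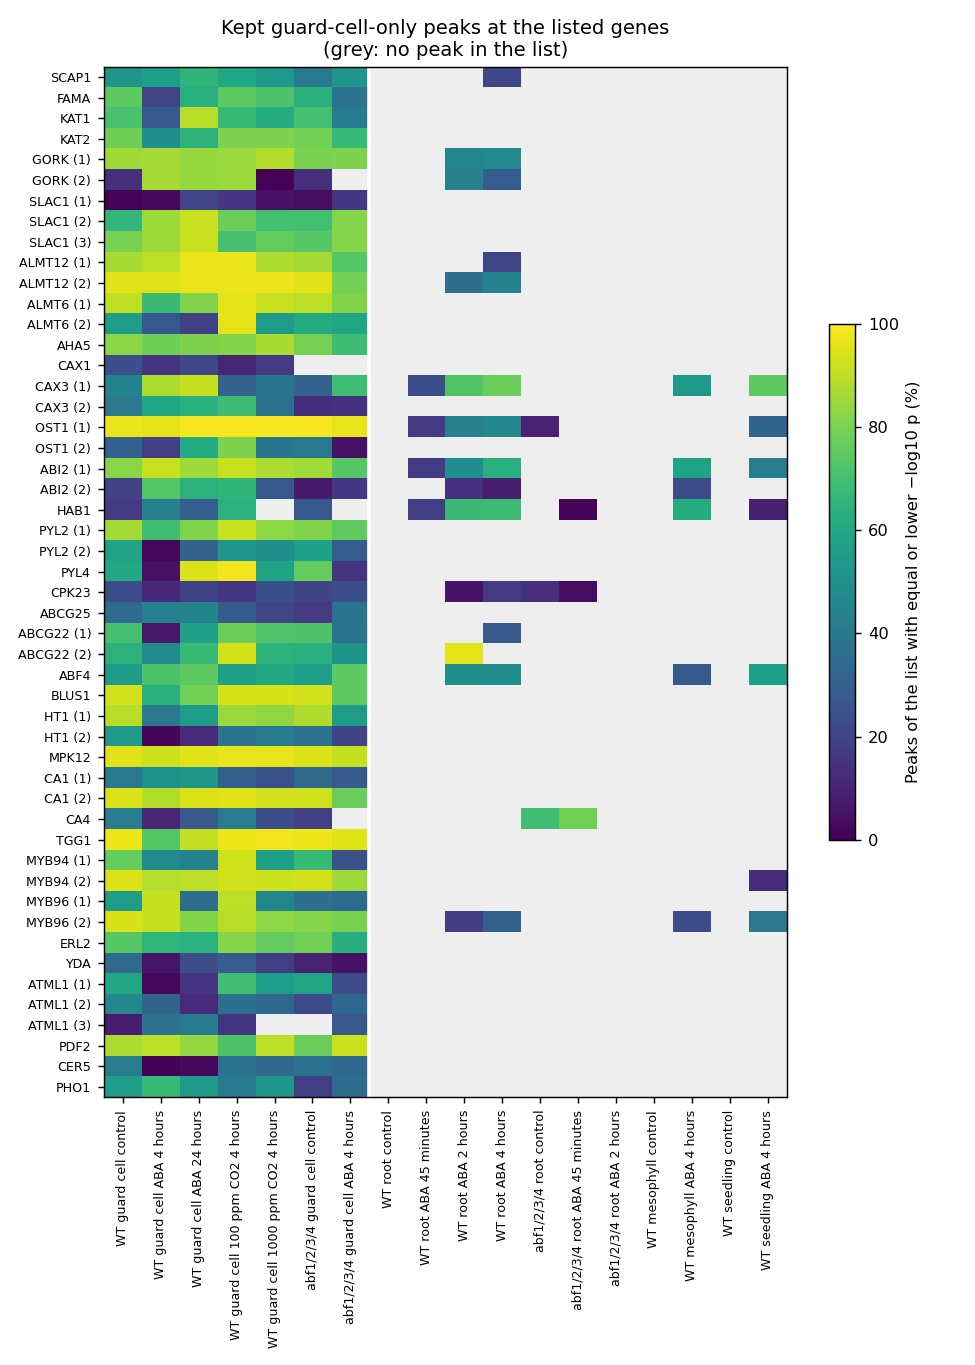
Rank of the kept peaks at the listed genes (rows; numbers in brackets separate peaks of the same gene) in the 18 lists (columns), as the percentage of peaks of that list with an equal or lower −log10 p, with grey where no peak was called. The 7 guard cell columns on the left are filled in nearly every row, 40 of 44 at guard cell genes, and the columns on the right hold entries mainly at ABA signalling genes, CAX3, GORK and MYB96 in WT roots after 2 h and 4 h of ABA.

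By the RefSeq gene table, 716 summits (44.3%, 41.8 to 46.7) lay inside a protein-coding gene, 678 (41.9%, 39.5 to 44.4) lay outside but within 1 kb of a gene end, and 224 (13.8%, 12.2 to 15.6) lay farther away. The shares over all guard cell control peaks were 40.8%, 47.1% and 12.1%. Summits lay inside genes for 51.5% of peaks not kept and 36.8% of peaks shared with all 3 other controls, so the kept peaks were between these. In the weakest rank bin 42.2% of kept peaks (37.3 to 47.3) and 52.0% of those not kept (49.4 to 54.7) were inside genes. Of the kept summits, 728 (45.0%) were within 150 bp of a gene end, beside 50.4% of all control peaks. The table gives no strand or exon limits, so starts and ends of genes, and exons and introns, cannot be told apart.

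**Figure D4:**
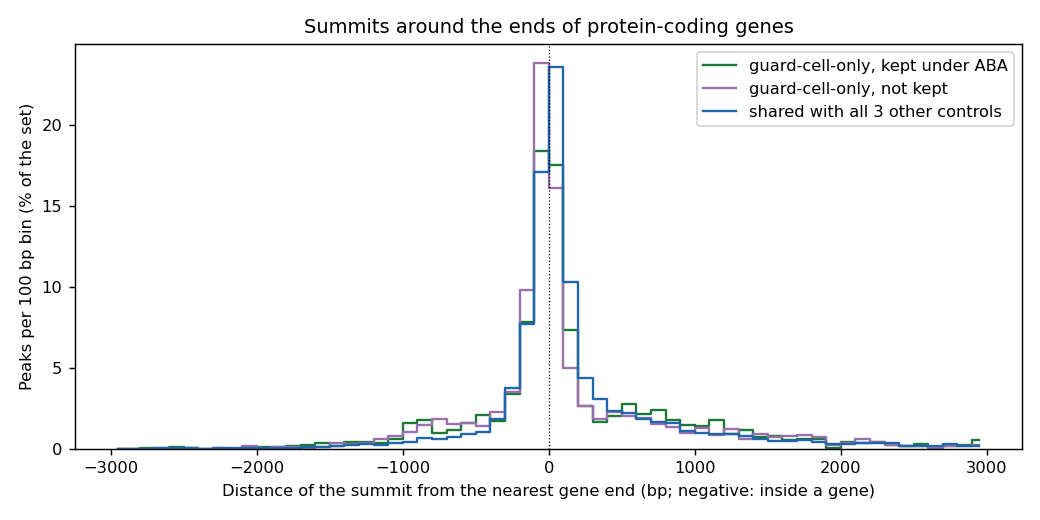
Distance of peak summits from the nearest end of a protein-coding gene, in 100 bp bins as a percentage of each set, with negative values inside genes. Green is kept, purple is guard-cell-only and not kept, and blue is shared with all 3 other controls; all 3 sets peak next to the gene end, purple mainly inside it and blue mainly outside.

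The kept peaks were spread over the genome. Chromosomes 1 to 5 held 412, 247, 329, 247 and 383, which was 7.47 to 7.96% of the control peaks of each. The nearest genes numbered 1463, of which 133 were nearest to 2 or more kept peaks and 18 to 3 or more. Another kept peak lay within 5 kb of 510 of the 1618 (31.5%), and another control peak of any kind lay within 5 kb of 89.5% of all guard cell control peaks. Linking kept peaks at most 5 kb apart gave 14 runs of 4 or more. Beside those at SLAC1, MYB102 and MYB96, 4 kept peaks lay at KCS6 and TKPR2. A run of 4 lay at AT4G24480, SIC and CER2, the last a gene of wax synthesis. Another 4 had the expansin gene EXPA4 as their nearest gene, not all of them within 1500 bp of it, and 7 lay at AT1G23200 to AT1G23205.

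The longest run held 10 kept peaks over 11.3 kb (chr1:28487879-28499207), at AT1G75870, AT1G75880, AT1G75890 and AT1G75900. The guard cell lists had 8 to 11 peaks there, at up to 23.1 in the control, 13.1 and 18.9 after ABA, 22.6 and 20.5 at 100 and 1000 ppm CO2, and 16.5 and 14.8 in the mutant control and ABA lists. Across the same span 10 of the 11 other lists had 0 peaks, and the seedling ABA list had 1, at 3.99. The locus was covered with peaks in guard cells under every treatment and in the mutant. It was all but empty in the lists of the other tissues. For the kept peaks, calls in the WT control and WT ABA guard cell lists were set by the choice. So was their absence from the WT root, mesophyll and seedling controls. The CO2 and mutant guard cell lists, and the ABA and mutant lists of other tissues, were not used in it.

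**Figure D5:**
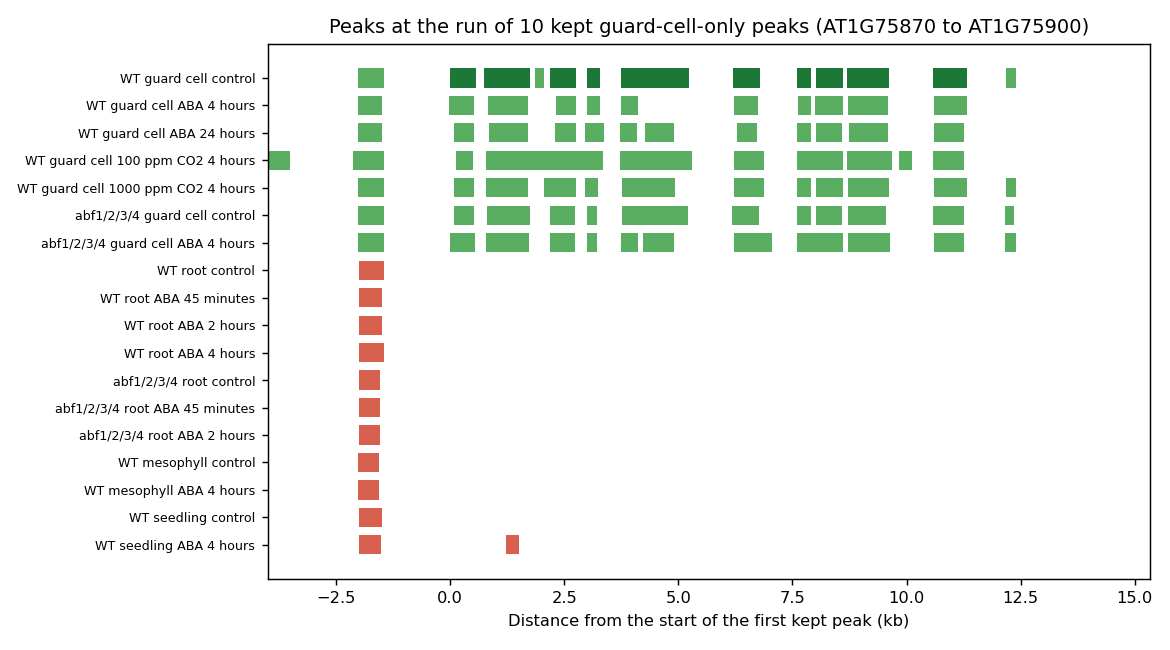
Peaks of the 18 lists around the run of 10 kept peaks, drawn to scale by distance in kb from the start of the first kept peak. Dark green marks the kept peaks in the WT guard cell control list, light green other peaks of the guard cell lists and red peaks of other tissues, which have a shared peak to the left of the run and, within it, 1 seedling ABA peak.

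At the edge of the rule, the kept peaks nearest to a peak of another control list lay 15 bp away at AT1G72840, 21 bp at APRL4 and 23 bp at HCF101. The guard cell control peaks with the smallest overlap, which were left out, shared 4 bp at GLYI8, 10 bp at EPF1 and 26 bp at AT3G43280. EPF1, a peptide that limits stomatal density, was at 15.7 in the control list and was left out through the WT root control list alone, at 5.55. The median gap of a kept peak to the other controls was 1218 bp, and 457 of the 1618 (28.2%) lay within 500 bp of one.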

How the data were processed

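Per the labels' protocols, nuclei isolated by FACS were tagmented with Tn5 and the libraries amplified and sequenced. The submitters' processing notes name Trim Galore 0.6.5, cutadapt, FastQC, SAMtools, bedtools 2.30, Picard, Genrich, DESeq2 1.26.0 and deepTools 3.5.0, and the genome build TAIR10, without saying which step each served. The deposited files are peak lists, 1 per group, with position, summit, a peak score, an area score of at least 200 and the −log10 p of each peak. The q-value column was −1 throughout, so the deposited p-values are uncorrected. How replicates were combined is not given in the sources used here. The lists differ in length, and a peak missing from a list may lie under its threshold.

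Overlaps, shares and intervals were computed with Python 3.11.15, pandas 2.3.3, NumPy 2.4.6 and SciPy 1.17.1, and the overlap functions were checked on simulated peaks against bedtools 2.31.1. A peak counted as found where it shared 1 bp or more with a peak of the list. The height given for another list is that of the strongest peak met there, which can be a broad peak that also covers a neighbour. Genes came from the RefSeq table of TAIR10.1, used for names and for which gene lies nearest, and no gene coordinates are given. A gene had a kept peak where the peak lay inside it or within 1500 bp. The peaks and the gene lists were chosen with earlier results of these data known. Peaks named in the text are the 15 strongest, the 5 widest, those at listed genes, at genes nearest to 4 or more, the 5 strongest in the most other lists, the 5 strongest in no mutant guard cell list and in all guard cell lists alone, and the 3 on each side of the overlap limit. Of the 85 listed guard cell genes, 79 were matched to the table. Alternatives were another overlap measure, lists of equal length, a −log10 p of at least 10, a 500 bp gap, absence from all 11 other lists and other distances.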

Additional observations from a re-analysis of the deposited data

How the results depend on the processing

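The number of kept peaks was 1774 when the summit had to lie in the other peak, 2222 when 50% of the peak had to be covered, 1330 with lists of equal length and 1161 with a gap of at least 500 bp. With a −log10 p of at least 10 it was 515, and with absence from all 11 other lists 888. Under 2 alternatives chosen after seeing the data, an ABA peak that meets no other guard cell control peak left 1395, and an ABA peak that meets no other control left 1457. With equal lengths some orders turned. The 100 ppm share fell below all control peaks (92.2% beside 93.0%), and seedling ABA passed WT roots at 2 h (16.2% and 13.4%). Mutant roots at 45 min, at 7.37%, passed WT roots at 45 min (6.69%) and the mutant root control (6.24%). Of 66 alternative values 39 stayed within the counting interval or within 1.5 times, and 27 moved. With 50% coverage the mutant guard cell ABA list held 90.4% and any root list 38.7%. With equal lengths the mutant control list held 86.4%, 100 ppm 92.2%, 1000 ppm 94.4%, mesophyll ABA 10.2%, seedling ABA 16.2% and any root list 26.4%. With a −log10 p of at least 10 the mutant control, 100 ppm and 1000 ppm lists each held 100% and the mutant ABA list 98.6%, mesophyll ABA 5.83%, seedling ABA 12.0% and any root list 33.4%, with 41.4% of summits inside genes. With the 500 bp gap the mutant control list held 89.9%, mutant ABA 90.3% and 1000 ppm 94.1%. With absence from all 11 lists 100 ppm held 91.9% and 1000 ppm 94.6%, with 47.5% of summits inside genes and 38.3% near them. Summits outside genes were 31.3% within 500 bp and 50.6% within 2 kb of a gene end. The cause of these shifts was not tested, other than that the overlap, length, strength, gap and absence settings change by construction which peaks enter. Listed guard cell genes with a kept peak numbered 21 to 35 under the alternatives, beside 30. No paired analysis was possible because each group has 1 list and no values per sample, and for the same reason no replicate could be left out. The motif alternatives were not run, since no genome sequence was used here.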

Other observations

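Gene families, some of which include listed genes such as ABCG25, ABCG22, MYB94 and MYB96, are given here as counts with no test, beside 8.41% of all protein-coding genes, and were chosen after results were seen. A kept peak lay at 13 of 42 ABCG transporters (31.0%), among them ABCG11 and ABCG32, which export cuticle lipids, at 7 of 21 KCS elongases (33.3%), at 3 of 9 GPAT acyltransferases (33.3%), GPAT4 and GPAT8 of cutin synthesis among them, and at 6 of 8 genes whose symbols start with LTP. It lay at 1 of 10 CYP86 and 2 of 13 CYP96 genes, and the listed CYP86A2, CYP86A8, KCS13, CER1 and FDH had none. Expansins of the EXPA type, which loosen cell walls, had 5 of 23, and UDP-glycosyltransferases of the UGT type 10 of 58. Among transcription factors it lay at 12 of 123 MYB genes and 8 of 82 NAC genes (9.76% in both), 3 of 67 WRKY genes (4.48%), 4 of 24 ERF genes (16.7%) and 5 of 31 HB genes (16.1%). It lay at 2 of 8 genes whose symbols start with DOF and 0 of 9 with bHLH. Families were taken by the start of the symbol, so members under other names were not counted. Left out in this way were the bHLH gene FAMA and the DOF gene SCAP1, which had a kept peak each. No kept peak lay at any of 40 CRK receptor kinase genes, 16 TCP genes or 13 LHC genes of the light-harvesting antenna, of which 24, 11 and 13 had a guard cell control peak. Peaks shared with the mesophyll, root or seedling controls had been removed by the choice.

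Among the 5 widest kept peaks, that by GSTU9, a glutathione transferase gene (chr5:25083769-25086065), was called in 5 lists of other tissues and stood at 16.5 in the guard cell control and 21.9 and 12.0 after ABA for 4 h and 24 h. In WT roots it met peaks of 6.83, 32.8 and 10.9 after 45 min, 2 h and 4 h of ABA, and no mutant root list had a peak there. Kept peaks absent from both CO2 lists numbered 45, and those absent from both mutant guard cell lists 79.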
